A study of Mus musculus with 30 samples.

Results

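The MHC class II genes of the mouse and the gene of their coactivator were followed in bulk RNA-seq of the colon, as 10 genes out of the 46078 that were counted. They are the classical chain genes H2-Aa, H2-Ab1 and H2-Eb1, the invariant chain gene Cd74, the genes of the peptide exchange proteins H2-DMa, H2-DMb1, H2-DMb2, H2-Oa and H2-Ob, and Ciita. They were chosen by name and matched by their Ensembl identifiers in all 30 libraries. The mice were C57BL/6J, 5 to 6 weeks old when feeding began, and the females had their ovaries. They received a control diet (CD) with 10% of its energy from fat or a high-fat diet (HFD) with 60%, for 13 weeks. During the last 3 weeks they were given 9 intraperitoneal injections of vehicle or of estradiol (E2, 0.5 mg/kg body weight). The groups were CD females (CD F), CD males (CD M), HFD females (HFD F) and HFD males (HFD M), all with vehicle, and HFD males with E2 (HFD+E2 M), with 6 mice and 6 libraries each. E2 was therefore compared with vehicle in males on HFD and in no other setting, and the RNA came from colon tissue with all of its cell types.

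MHC class II molecules carry peptides from endocytosed proteins to the surface of antigen-presenting cells, where CD4+ T cells read them. The alpha and beta chains assemble on the invariant chain, the DM protein exchanges its remnant for antigenic peptide, and the DO protein, typical of B cells, restrains DM. Ciita encodes the coactivator that is recruited to the promoters of these genes and is itself made mainly by B cells, dendritic cells and, after interferon gamma, by macrophages and epithelium.

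The promoters of class II genes share an X box, bound by RFX, and a Y box, an inverted CCAAT motif bound by NF-Y, on which Ciita protein docks. The stretches with these boxes are shown because they are what most of the genes described here have in common in sequence. RefSeq promoter windows (GRCm38.p6, from 250 bases before to 50 after each gene's start) were matched for 7 of the 10 genes, by 8 windows. The letters searched on both strands, chosen after the windows had been read, were TGATTGG for the Y box and CTNNNAAC for the X box, with the start of the X box 20 to 45 bases before that of the Y box on the same strand. The Y box was found in the windows of 6 of the 7 genes and in 7.82% of all 32851 windows. The pair was found for 5 genes and in 65 windows in all, or 0.198%. Both windows of H2-DMa hold neither the Y box nor the pair, and both lie around starts upstream of the span that the files give for this gene. Below, capitals mark the X box followed by the Y box, and for H2-Oa the Y box alone.
H2-Aa (chr17:34287857-34287917, minus strand): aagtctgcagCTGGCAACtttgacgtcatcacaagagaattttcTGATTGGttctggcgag
H2-Eb1 (chr17:34305763-34305822, plus strand): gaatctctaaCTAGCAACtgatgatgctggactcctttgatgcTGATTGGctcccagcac
H2-DMb1 (chr17:34153084-34153144, plus strand): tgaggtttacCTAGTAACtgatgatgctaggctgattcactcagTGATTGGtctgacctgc
H2-DMb2 (chr17:34145113-34145173, plus strand): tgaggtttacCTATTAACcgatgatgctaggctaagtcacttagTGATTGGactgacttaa
H2-Ob (chr17:34238805-34238862, plus strand): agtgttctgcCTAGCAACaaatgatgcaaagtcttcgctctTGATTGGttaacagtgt
H2-Oa (chr17:34092289-34092350, plus strand): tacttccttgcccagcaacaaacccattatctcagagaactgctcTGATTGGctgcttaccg
The starts of the boxes lay 34 bases apart in H2-Aa, H2-DMb1 and H2-DMb2, 33 in H2-Eb1 and 31 in H2-Ob. The Y box began between 45 bases (H2-Oa) and 92 bases (H2-DMb2) before the RefSeq start. A match of letters is a description and not a measured binding site. A missing match to these letters, as for the X box of H2-Oa, does not show that a box is absent.

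Total counts on genes ranged from 8667177 to 17243712 per library, with a median of 11530915. Levels are given in TPM, a unit that corrects for gene length and sums to the same total in every library. Differences between groups are given as log2 fold changes of counts. The colon epithelium markers summed to between 3721 and 5995 TPM in all libraries, and 6 HFD libraries (4 of HFD F and 2 of HFD M) also held the squamous keratin gene Krt14 at over 5 TPM. All genes followed here lie on chromosome 17 except Cd74 on chromosome 18 and Ciita on chromosome 16. H2-Oa lies within BC051537 on the opposite strand, which had 1 count over all libraries against 503 for H2-Oa. The span of Ciita overlaps that of Dexi on the opposite strand, with 1600 counts against 2613 for Ciita. Whether reads were counted by strand is not given in the sources used here, so that reads of such partners cannot be told apart. H2-DMb1 and H2-DMb2 are close paralogs, and their split of reads is uncertain.

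The classical chains and the invariant chain were the abundant members. H2-Aa (ENSMUSG00000036594, GRCm38, 34282744 to 34287827), the alpha chain of I-A, averaged 68.6 ± 29.7 TPM (SD, n = 30) and spanned 32.1 to 137 TPM. H2-Ab1 (ENSMUSG00000073421, 34263209 to 34269418), its beta chain, averaged 38.8 ± 11.97 TPM (SD, n = 30) and spanned 23.7 to 69.2 TPM. Cd74 (ENSMUSG00000024610, 60803848 to 60812646), whose product also guides class II molecules to endosomes, was the highest at 101 ± 34.8 TPM (SD, n = 30), between 54.0 and 196 TPM. H2-Eb1 (ENSMUSG00000060586, 34305877 to 34316199), the beta chain of I-E, averaged 30.5 ± 13.1 TPM (SD, n = 30). C57BL/6 mice lack a working I-E alpha gene, and the pseudogene H2-Ea-ps was listed at 0 TPM in every library, with counts in 1 library only.

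The exchange proteins and the coactivator were far less abundant. The DM genes H2-DMa (ENSMUSG00000037649, GRCm38, 34135182 to 34139101), H2-DMb2 (ENSMUSG00000037548, 34143307 to 34151553) and H2-DMb1 (ENSMUSG00000079547, 34153072 to 34160230) lie side by side on the plus strand of chromosome 17. The DO genes H2-Oa (ENSMUSG00000024334, 34092340 to 34095234) and H2-Ob (ENSMUSG00000041538, 34238903 to 34245907) lie to either side of them. H2-DMa averaged 5.17 ± 2.08 TPM, H2-DMb1 3.58 ± 1.26 TPM and H2-DMb2 3.61 ± 2.79 TPM (SD, n = 30 for each), with H2-DMb2 listed at 0 TPM in HFD M replicate 4, where it had 2 counts. H2-Ob, the beta chain of DO, averaged 3.82 ± 3.11 TPM and spanned 0.154 to 10.6 TPM. H2-Oa, its alpha chain, was the lowest at 1.41 ± 1.39 TPM (SD, n = 30), with 2 to 108 counts per library. Ciita (ENSMUSG00000022504, 10488178 to 10527564) averaged 1.53 ± 0.964 TPM (SD, n = 30), with 28 to 237 counts.

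**Figure D1:**
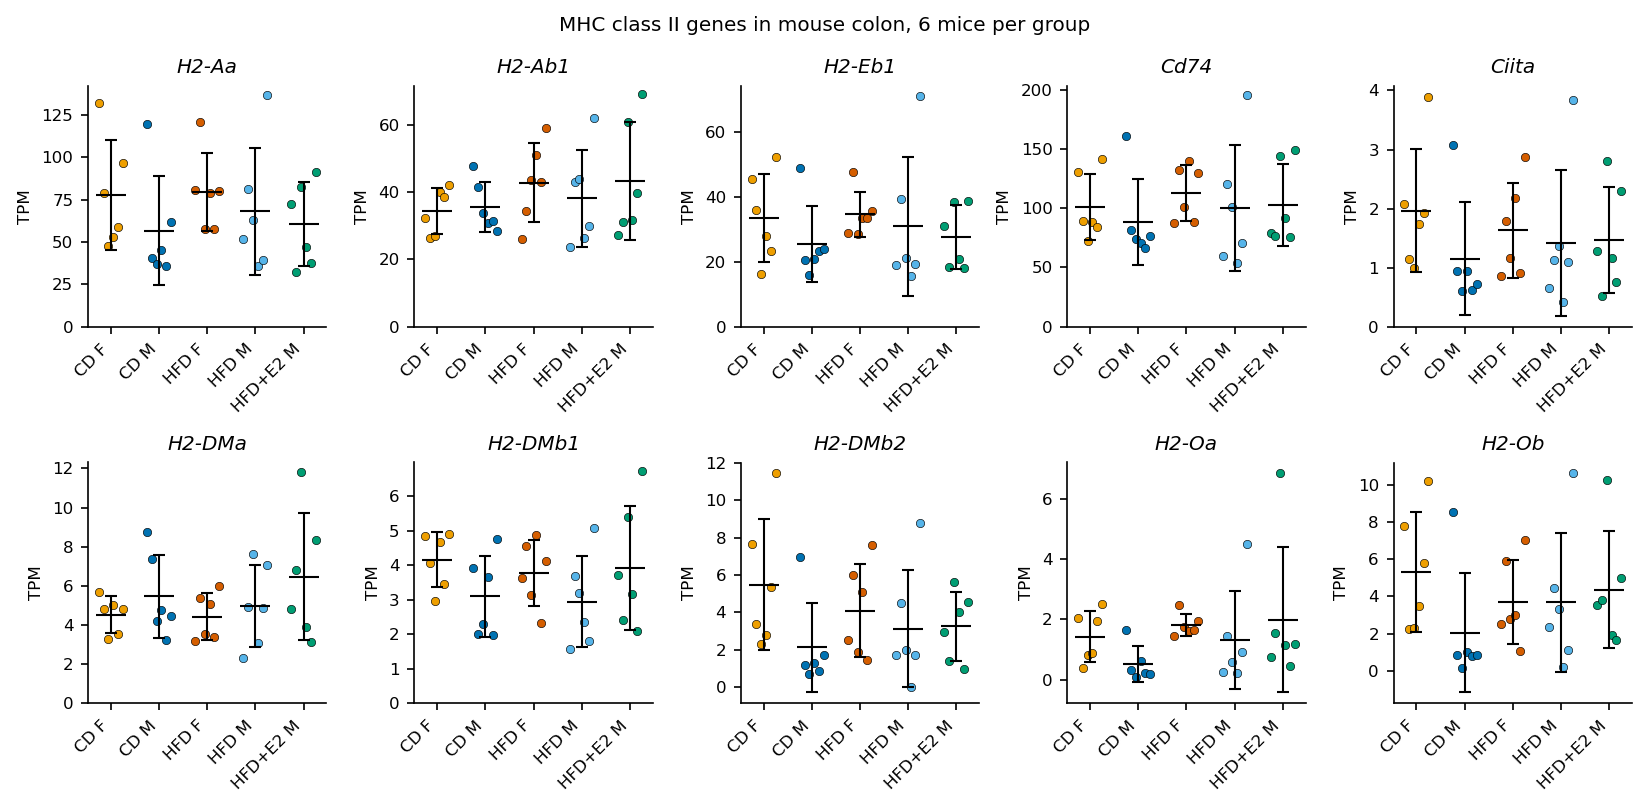
TPM of the 10 genes by group, with 1 point per mouse, the mean as a bar and the SD as whiskers (n = 6), on linear axes that differ between genes. The groups overlap for every gene, and single libraries stand high in several panels, as CD M replicate 1 and HFD M replicate 6.

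In the order of the group means on the log2 scale, CD M was lowest for 7 of the 10 genes and no group was highest for most. None of the 40 neighbouring pairs in these orders had an exact two-sided permutation p under 0.05, where the smallest for 6 against 6 is 0.00216. Neighbours in a sorted order lie close by construction, so this does not show that the groups were alike. Between the highest and the lowest group, 4 of 10 genes had an exact permutation p under 0.05, without adjustment for the choice of these groups. The share of all genes with such a p was not computed, so this count is not read as a trait of these genes. The lowest of these p-values was that of H2-Oa, with 1.46 to 2.47 TPM (median 1.69) in HFD F and 0.0886 to 1.66 TPM (median 0.258) in CD M (exact permutation p = 0.00433).

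The spread within groups was wide. The within-group SD of log2 CPM was between 0.49 for H2-Ab1 and 1.17 for H2-Ob, whereas the median of the 14905 genes with at least 1 CPM was 0.284. Among the 500 genes nearest to each in mean CPM, 9 of the 10 genes lay above the 90th percentile of this SD (90.8 for H2-DMa to 98.4 for Cd74), and H2-DMb1 lay at 69.8. The group accounted for 2.66% of the variance of H2-DMa and for 31.3% of that of H2-Oa, where the median over genes was 16.4%. The same mice were high for most members. HFD M replicate 6 was the highest HFD M library for 9 of the 10 genes, CD M replicate 1 the highest CD M library for 9, and CD F replicate 6 the highest CD F library for 8. HFD M replicate 4, CD F replicate 3 and HFD+E2 M replicate 5 were each the lowest of their group for 7 genes.

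Females and males on CD were compared to ask whether the sexes differed in class II expression on the control diet. Most class II genes had a higher estimate in CD F, with 8 of the 9 genes tested above 0 and a median log2 fold change of 0.50, where the median over all genes was 0.011 and 52.2% were above 0. In TPM, 7 of 9 were above 0. The genes varied together across mice, so that shared signs here and in the comparisons below are not independent observations. None passed the adjusted threshold (Benjamini-Hochberg adjusted p under 0.05 in edgeR's quasi-likelihood test), which 2.92% of the 14922 genes tested passed, and 1 passed the threshold of the study (unadjusted p under 0.05 with a log2 fold change beyond 0.4, up or down), which 9.15% passed. DESeq2 placed 0 of the 10 genes past the adjusted threshold (2.79% of all genes) and 6 past that of the study (6.3%), among them H2-Oa, which did not pass edgeR's filter on low counts.

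H2-DMb2, a beta chain of DM, was the gene past the threshold of the study. In CD F it ranged from 2.31 to 11.4 TPM with a median of 4.36, and in CD M from 0.701 to 6.97 TPM with a median of 1.23. The groups overlapped through CD M replicate 1, the next CD M library being at 1.69 TPM. The log2 fold change was 1.45 (SE 0.57, 95% interval 0.23 to 2.68, adjusted p = 0.229 from edgeR), and the exact permutation test over single libraries gave p = 0.0303.

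Both DO genes had their lowest levels in CD M as well. H2-Ob was at 2.24 to 10.2 TPM (median 4.63) in CD F and at 0.154 to 8.53 TPM (median 0.873) in CD M. Its log2 fold change was 1.44 (SE 0.69, 95% interval -0.06 to 2.95, adjusted p = 0.364 from edgeR), and the exact permutation test gave p = 0.0216. H2-Oa was at 0.399 to 2.52 TPM (median 1.41) in CD F and at 0.0886 to 1.66 TPM (median 0.258) in CD M, with an exact permutation p of 0.0303.

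For the abundant chains the differences were smaller and did not pass either threshold. With the replicate number as a block, H2-Aa (0.62, adjusted p = 0.0014 from edgeR) and H2-Eb1 (0.49, adjusted p = 0.0498) passed the adjusted one, in a fit where 6.31% of all genes did. The labels give no shared origin to equal replicate numbers, and the sample numbers of the labels, which H2-Aa and H2-Eb1 also followed, rise with them. H2-Aa was at 47.7 to 132 TPM (median 69.0) in CD F and at 36.0 to 119.6 TPM (median 43.1) in CD M, with a log2 fold change of 0.58 (SE 0.28, adjusted p = 0.367 from edgeR). H2-Eb1 differed by 0.50 (SE 0.27) and Cd74 by 0.35 (SE 0.20) on the log2 scale. H2-Ab1, the partner of H2-Aa, differed by 0.09 (SE 0.16, 95% interval -0.24 to 0.43). For H2-DMa the difference was -0.13 (SE 0.23). Ciita was at 0.987 to 3.89 TPM (median 1.83) in CD F and at 0.604 to 3.08 TPM (median 0.829) in CD M, a log2 fold change of 0.66 (SE 0.34, adjusted p = 0.393 from edgeR).

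Markers of several other cell types differed in this comparison. The 15 B cell markers had a median log2 fold change of 1.32 in CD F over CD M, 6 of them passed the threshold of the study upwards and none the adjusted threshold in edgeR (1 in DESeq2), and their summed level was 52.7 to 122 TPM in CD F and 34.0 to 109 TPM in CD M. All 10 smooth muscle markers were lower in CD F at the threshold of the study, 6 of them after adjustment, with summed levels of 2640 to 4093 TPM in CD F and 4149 to 6888 TPM in CD M. Of the macrophage and monocyte markers 3 passed the threshold of the study downwards (median -0.19). Of the colon epithelium markers 2 were higher after adjustment and 2 passed the threshold of the study downwards (median -0.04). The 3 T cell markers that could be tested had a median of 1.09. With the B cell score as a term in the fit, the log2 fold change fell to 0.15 for H2-DMb2, 0.29 for H2-Ob and 0.03 for H2-Aa. With the smooth muscle score, the values were -0.09 for H2-DMb2, -0.37 for H2-Ob and -0.48 for H2-Aa, and 7 of the 9 genes lay below 0. The summed smooth muscle levels of the groups did not overlap, so this fit cannot reliably separate that score from sex. In bulk RNA, fewer cells of a type and less RNA per cell cannot be told apart. The part of these cells in the result was not tested.

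Single libraries moved the number of genes past a threshold. CD M replicate 1 held 109 TPM of summed B cell markers, and the other CD M libraries held 34.0 to 47.9 TPM. Without it, 4 genes passed the adjusted threshold, with log2 fold changes of 2.81 for H2-Ob, 2.22 for H2-DMb2, 0.87 for H2-Aa and 0.55 for Cd74 (adjusted p = 0.00484, 0.0222, 0.0406 and 0.0480 from edgeR), where 4.6% of all genes passed. In the same fit 6 genes passed the threshold of the study, against 11.2% of all genes. Without CD F replicate 6 none of the genes passed the adjusted threshold (1.81% of all genes) or that of the study (8.1%). Without CD F replicate 3 there were 7 past that of the study, against 9.71% of all genes.

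**Figure D2:**
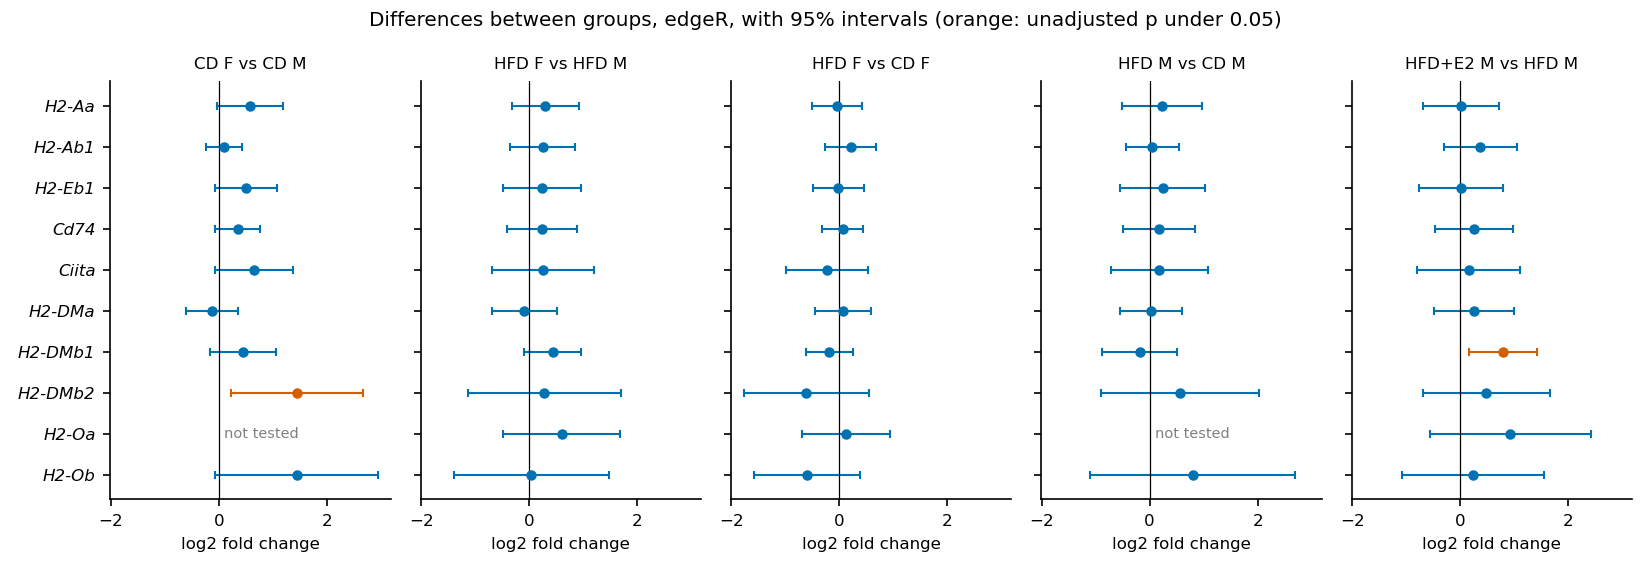
Log2 fold changes from edgeR (points) with 95% intervals (bars) for the 10 genes in the comparisons of 2 groups, with orange for an unadjusted p under 0.05. Only H2-DMb2 between CD F and CD M (1.45) and H2-DMb1 between HFD+E2 M and HFD M (0.80) have such a p, and H2-Oa was not tested against CD M.

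On HFD the comparison of the sexes gave no call. None of the 10 genes passed the adjusted threshold (0.0988% of all genes) or the threshold of the study (3.09%), with edgeR or with DESeq2, and no gene had an unadjusted p under 0.05 in edgeR. The median log2 fold change of HFD F over HFD M was 0.25, against 0.0059 over all genes, and 9 of 10 were above 0. H2-Ob had close medians in both sexes, with 1.07 to 7.01 TPM (median 2.89) in HFD F and 0.194 to 10.6 TPM (median 2.86) in HFD M, a log2 fold change of 0.05 (95% interval -1.39 to 1.48). H2-DMb1 showed the lowest p among the 10 genes, with 0.44 (SE 0.25, unadjusted p = 0.0983, adjusted p = 0.872 from edgeR). Without HFD M replicate 6, the highest of its group, 5 genes passed the threshold of the study, against 4.69% of all genes, and none the adjusted one (0.0912%).

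Whether the sex difference changed with diet was tested as an interaction over the 24 vehicle libraries. No gene passed the adjusted threshold (0% of all genes) or that of the study (5.18%), by edgeR or, for the adjusted threshold, by DESeq2, and none had an unadjusted p under 0.05 in edgeR. The B cell markers had a median interaction term of -1.07. The largest terms among the 10 genes were those of H2-Ob, -1.40 (SE 1.01, 95% interval -3.51 to 0.71), and H2-DMb2, -1.18 (SE 0.93). Without CD M replicate 1, 2 genes passed the threshold of the study, against 7.28% of all genes.

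HFD was compared with CD within each sex to ask how the diet bore on these genes. In females none of the 10 genes passed the adjusted threshold (0.0199% of all genes) or that of the study (3.67%), none had an unadjusted p under 0.05 in edgeR, and DESeq2 called none. The median log2 fold change was -0.03. The bounds were narrow for the abundant genes, with 0.06 for Cd74 (95% interval -0.32 to 0.44), -0.05 for H2-Aa (-0.51 to 0.42) and 0.21 for H2-Ab1 (-0.26 to 0.68). Cd74 was at 72.1 to 141 TPM (median 89.0) in CD F and at 87.4 to 139.5 TPM (median 115) in HFD F. The B cell markers had a median of -0.43 in this comparison, and H2-Ob (-0.60, SE 0.45) and H2-DMb2 (-0.61, SE 0.54) had the most negative values. Krt14 exceeded 5 TPM in 4 of the 6 HFD F libraries and in no CD F library. Without HFD F replicate 6, 1 gene passed the threshold of the study, against 4.44% of all genes.

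In males the diet gave 0 of 9 genes past the adjusted threshold (0% of all genes) and 0 past that of the study (2.9%), none with an unadjusted p under 0.05 in edgeR, and none by DESeq2. The study lists H2-Aa, H2-Oa, H2-Ob and H2-DMb2 under immune response among its HFD-regulated genes in males. None of these was called here with all libraries of the 2 groups. H2-Oa was fitted by DESeq2 but not by edgeR, whose filter on low counts it did not pass. A figure legend of the study allows for fewer than 6 libraries in a group. The reason for the difference was not tested. The median log2 fold change was 0.17. Cd74 was at 66.5 to 161 TPM (median 75.2) in CD M and at 54.0 to 196 TPM (median 85.8) in HFD M, a log2 fold change of 0.17 (95% interval -0.50 to 0.83). For H2-Ob it was 0.79 (95% interval -1.10 to 2.69), a wide interval that holds a decrease as well as an increase. The B cell markers had a median of 0.66, and with their score in the fit 8 of the 9 genes lay below 0. The comparisons of the vehicle groups share libraries, so their values are not independent of each other. Without CD M replicate 1, the log2 fold changes were 2.15 for H2-Ob, 1.33 for H2-DMb2 and 0.53 for H2-Aa, and 8 of the 9 genes lay above 0. In that fit 1 gene passed the threshold of the study, against 4.68% of all genes, and none the adjusted one (0.0133%).

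E2 was compared with vehicle in HFD males to ask whether the hormone acted on these genes. H2-DMb1, a beta chain of DM, was the 1 gene of the 10 past the threshold of the study, which 5.87% of all genes passed, and none passed the adjusted threshold (0.00666%) with edgeR or DESeq2. It was at 2.09 to 6.72 TPM (median 3.44) with E2 and at 1.58 to 5.07 TPM (median 2.78) with vehicle, so that the groups overlapped over most of their range. In counts the log2 fold change was 0.80 (SE 0.30, 95% interval 0.17 to 1.43, unadjusted p = 0.0153, adjusted p = 0.461 from edgeR), with an exact permutation p of 0.0455. In TPM the difference was smaller, 0.39 on the log2(TPM + 0.1) scale, and did not pass either threshold. With the B cell score in the fit it was 0.55. Without HFD+E2 M replicate 3 none of the 10 genes passed the threshold of the study (4.24% of all genes), and without HFD M replicate 6 there were 2 (7.7%). H2-DMb2, its paralog, differed by 0.49 (SE 0.55).

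All 10 genes had log2 fold changes above 0 after E2, from 0.02 for H2-Aa to 0.93 for H2-Oa, with a median of 0.26, where the median over all genes was 0.0011 and 50.2% were above 0. The value of H2-Oa rested on single libraries, with 6.83 TPM in HFD+E2 M replicate 3 and 0.451 to 1.55 TPM in the others of that group. It was 0.12 without that library and 1.74 without HFD M replicate 6. The 10 genes varied together across mice, so that the shared sign does not stand for 10 independent observations. It was not kept with the B cell score in the fit, where 5 of the 10 lay above 0, nor in TPM, where 8 did. H2-Ab1 was at 27.2 to 69.2 TPM (median 35.7) with E2 and at 23.7 to 62.1 TPM (median 36.4) with vehicle, a log2 fold change of 0.38 (95% interval -0.30 to 1.05). H2-DMa was at 3.14 to 11.8 TPM (median 5.80) and 2.34 to 7.65 TPM (median 4.89), with 0.26 (95% interval -0.48 to 0.99). The B cell markers had a median of 0.42 in this comparison and the macrophage and monocyte markers 0.29.

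Across mice the class II genes moved with Ciita. After the group means were subtracted, each pair of the 10 genes correlated positively over the 30 libraries, from r = 0.48 (H2-DMb1 and H2-Ob) to r = 0.93 (Cd74 and Ciita). For Cd74 and Ciita, Spearman's rho was 0.94, both with p = 1e-05, the smallest that 100000 permutations within groups can give, and an adjusted p of 3.27e-05 for r and 3.77e-05 for rho over the 49 relations computed. It was 0.91 (Pearson) without CD M replicate 1 and HFD M replicate 6, the libraries farthest from the median of Ciita, and between 0.92 and 0.97 within the single groups. The other genes followed Ciita with r from 0.57 (H2-DMb1) to 0.87 (H2-DMb2), each with an adjusted permutation p under 0.05. How many of all genes have such a p with Ciita was not computed.

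**Figure D3:**
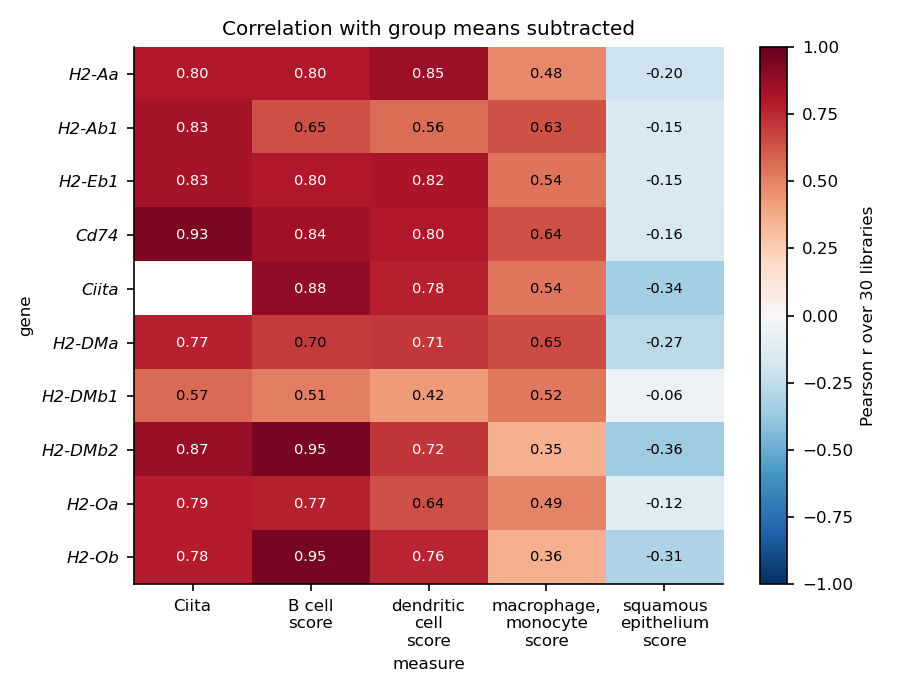
Pearson correlation of each gene (rows) with Ciita and with the scores of marker lists (columns) over 30 libraries after the group means were subtracted. The B cell score gives the darkest cells for H2-DMb2 and H2-Ob (0.95 each), and the squamous score gives values from -0.36 to -0.06.

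The correlation with B cell markers was positive for all 10 genes, with r from 0.51 to 0.95, and differences between these r were not tested. The score, the mean log2 CPM of 15 genes such as Cd79a and Ms4a1, correlated with H2-DMb2 and H2-Ob at r = 0.95 each (rho = 0.94 and 0.91), and at 0.92 for each without the libraries farthest from the median score, CD M replicate 1 and HFD M replicate 4. Ciita had r = 0.88 (rho = 0.89) and Cd74 had r = 0.84 (rho = 0.87). H2-Aa and H2-Eb1 had 0.80 each, H2-Oa 0.77 and H2-DMa 0.70. H2-Ab1 had 0.65 (rho = 0.69, adjusted permutation p = 0.000612 for r), or 0.84 when the split by sample number described further on was subtracted too, and H2-DMb1 0.51 (rho = 0.62, adjusted permutation p = 0.0125 for r). The score of dendritic cell markers gave r from 0.42 (H2-DMb1) to 0.85 (H2-Aa), with all 10 under 0.05 after adjustment, and 0.36 to 0.81 without CD M replicate 1 and HFD M replicate 6. That of macrophages and monocytes gave 0.35 (H2-DMb2) to 0.65 (H2-DMa), with 8 of 10 under 0.05, and 0.24 to 0.62 without HFD M replicate 6 and HFD+E2 M replicate 4. Within single groups the latter ran from -0.54 to 0.98. The squamous score gave no r with an adjusted permutation p under 0.05, and rho passed for H2-DMb2 alone (-0.43, adjusted p = 0.0444). The share of all genes that pass with each score was not computed, so these counts are not read as particular to the class II genes. The points share library and depth, and cell numbers and RNA per cell cannot be separated here.

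**Figure D4:**
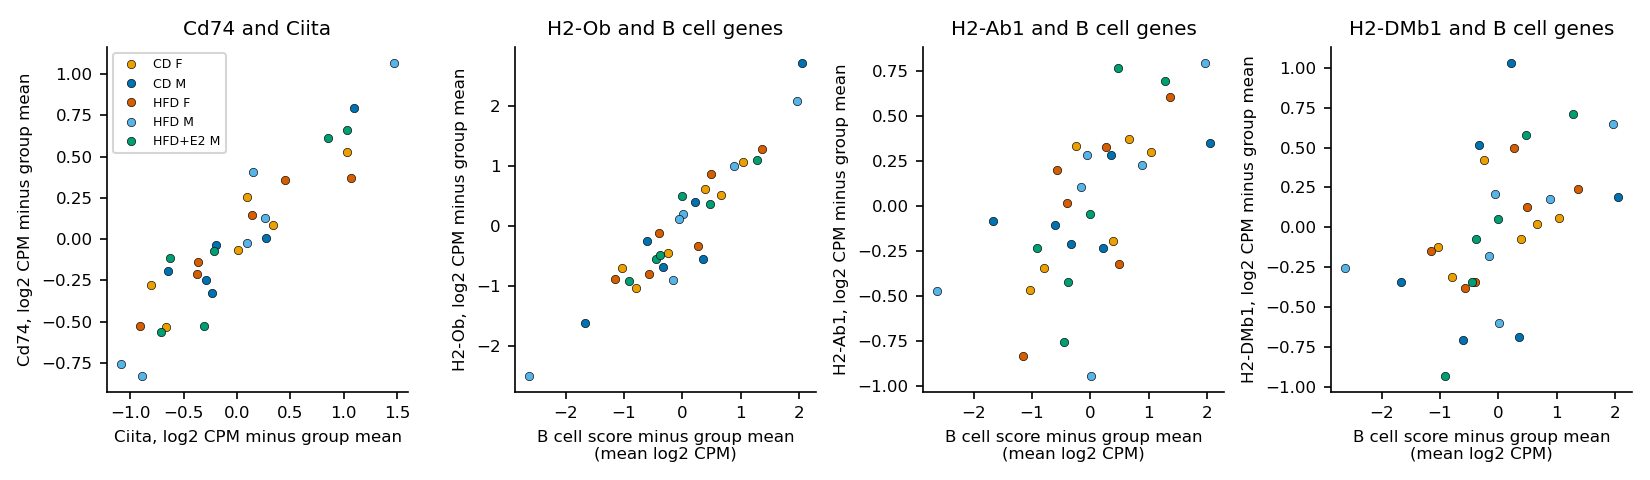
Log2 CPM of Cd74 against Ciita, and of H2-Ob, H2-Ab1 and H2-DMb1 against the B cell score, each minus its group mean, with 1 point per library and colours for groups. The points of Cd74 (r = 0.93) and H2-Ob (r = 0.95) lie close to a line, and those of H2-Ab1 (r = 0.65) and H2-DMb1 (r = 0.51) scatter.

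Among the other 14895 genes with at least 1 CPM, those most like the mean of H2-Aa, H2-Ab1, H2-Eb1 and Cd74 over the 30 group-centred libraries were Wdfy4 (r = 0.91), Snn, Mfge8, Hvcn1 and Rac2 (0.88). The genes most like Ciita were Wdfy4 and Rac2 (0.91 each), Pax5 (0.90), Ikzf1 and Ikzf3 (0.89 each). The genes most like H2-Ob were Btla, Blk, Cd52, Spib and Bank1 (0.94 each). Pax5, Blk, Spib and Bank1 are on the list of B cell markers. A correlation over 0.8 was found with 53 genes for the classical group, with 70 for Ciita and with 82 for H2-Ob.

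The chains of I-A did not keep 1 ratio across libraries, and the ratio followed the sample numbers 101 to 130 that the labels give. H2-Aa over H2-Ab1 in TPM was 1.90 to 4.12 (median 2.83) in the 8 libraries numbered 101 to 108, 0.954 to 1.77 (median 1.35) in the 19 numbered 109 to 127, and 2.18 to 2.29 in the 3 numbered 128 to 130. The ranges of the first and last numbers therefore lay apart from the range between them. In counts the corresponding ranges were 1.96 to 4.05, 1.01 to 1.71 and 2.13 to 2.28. This split was made after the ratios had been seen and is given without a test.

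**Figure D5:**
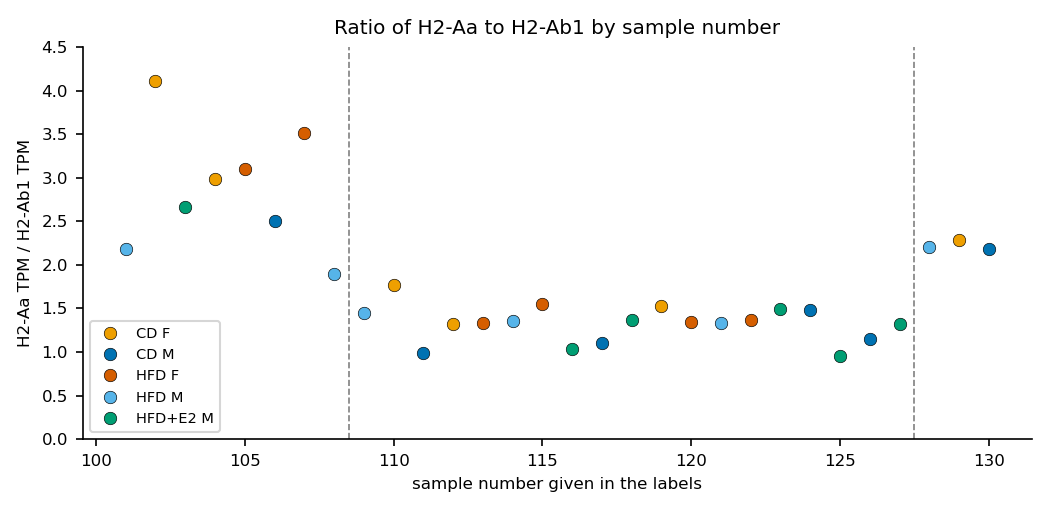
Ratio of H2-Aa to H2-Ab1 in TPM (linear axis from 0) against the sample number of the labels, with colours for groups and dashed lines before 109 and after 127. The 19 libraries between the lines lie at 0.954 to 1.77 and the other 11 at 1.90 to 4.12, with all groups among the libraries 101 to 108.

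The other ratios followed the sample numbers to different degrees. H2-Eb1 over H2-Ab1 was 0.809 to 1.42, 0.460 to 0.787 and 0.844 to 1.24 in the same order, again without overlap of the libraries 109 to 127 with the others. H2-Aa over Cd74 overlapped slightly, with 0.678 to 1.02, 0.419 to 0.704 and 0.683 to 0.811, and Cd74 over H2-Ab1 more, with 2.51 to 4.05, 1.91 to 2.89 and 2.69 to 3.35. H2-Aa over H2-Eb1 overlapped throughout, with 2.07 to 2.91, 1.55 to 2.97 and 1.85 to 2.59. On the log2 scale and within groups, the other 11 libraries exceeded those numbered 109 to 127 by 0.98 for H2-Ob, 0.74 for H2-DMb2, 0.58 for H2-Aa and 0.48 for H2-Eb1, at percentiles 99.7, 99.1, 97.6 and 95.8 of the signed differences of all genes. The difference was 0.15 for Cd74 (percentile 71.0), 0.13 for Ciita (68.3) and -0.30 for H2-Ab1 (14.1).

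The sample numbers were spread over the groups but not evenly. The libraries 109 to 127 were 3 of CD F, 4 of CD M, 4 of HFD F, 3 of HFD M and 5 of HFD+E2 M. With the split as a term in the fit, added after seeing the data, the log2 fold changes between CD F and CD M were 1.54 for H2-Ob, 1.36 for H2-DMb2, 0.48 for H2-Aa and 0.10 for H2-Ab1. None passed the adjusted threshold (4.96% of all genes) and 3 passed that of the study (8.81%), and in the comparison of E2 with vehicle 1 passed it (3.24%). What the sample numbers stand for is not given in the sources used here, and the cause of the pattern was not tested.

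The factors that act with Ciita and the proteases that prepare peptides gave no call. Of the 11 genes of class II transcription, among them Rfx5, Rfxank and Rfxap of the RFX complex and Nfya, Nfyb and Nfyc of NF-Y, 0 passed either threshold in any of the comparisons (edgeR), with 1 unadjusted p under 0.05 in the E2 comparison, and DESeq2 placed none past the adjusted threshold. Their median log2 fold changes were between -0.03 and 0.06. The highest of this list were Irf1 (46.3 TPM), an interferon regulatory factor, and Creb1 (22.8 TPM), which also binds class II promoters. Of the 9 genes of antigen processing 0 passed either threshold (edgeR), with at most 2 unadjusted p under 0.05 in a comparison, and none by adjusted p in DESeq2. Ctss, the protease that trims the invariant chain, was at 249 TPM on average (192 to 317), and Ctsd at 130 TPM (77.8 to 162). Rfx5 averaged 4.90 TPM, of the same order as the DM genes.

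H2-Eb2, a gene next to H2-Eb1 that was not among the 10, averaged 0.850 TPM and had 0 counts in 2 libraries, CD M replicate 3 and HFD M replicate 4. Its highest level in CD M was 2.78 TPM in replicate 1, and the median of that group was 0.211 TPM. In CD F it ranged from 0.466 to 2.50 TPM. Of the 4 other genes of the class II region, 2 had enough counts to be tested, H2-Eb2 and Brd2, a widely expressed chromatin reader. Neither passed a threshold in any comparison in edgeR or had an unadjusted p under 0.05, and DESeq2 called none by adjusted p.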

How the data were processed

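Colon RNA of 30 mice was depleted of ribosomal RNA and made into stranded libraries, which the authors sequenced. Per the submitters' processing notes, reads were converted with bcl2fastq 2.19.1.403 and handled with Trim Galore, STAR, featureCounts and StringTie on the build mm10 (GRCm38). The authors deposited raw counts per gene and TPM values, which StringTie scaled to gene length and library total. Replicates were not pooled, and the counts of 30 of 30 libraries matched their own TPM table best. Genes repeated in a TPM table, at most 24, were summed.

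Counts were fitted across all genes with edgeR 4.0.16 in R 4.3.3 (filterByExpr, TMM, robust quasi-likelihood F-test) on the libraries of the groups compared, and p-values were adjusted by Benjamini and Hochberg over all genes tested. The study used DESeq2 and a p-value under 0.05, not stated as adjusted and read here as unadjusted. SE and intervals follow from the F statistic. On counts simulated for CD F against CD M with 200 genes altered by 1 on the log2 scale, 198 of them among the 14745 genes kept, edgeR recovered 159 and called 7 unaltered genes. The altered genes were drawn from all genes, and most of the 10 genes followed here varied more within groups than genes of like level. Recovery for these 10 genes was not simulated. Group orders and single genes were compared by exact permutation tests of log2 CPM (prior count 2), and correlations by 100000 permutations within groups. Marker scores average log2 CPM over the genes of a list that exceed a mean of 0.1 CPM. Sampling of reads without molecular identifiers limits genes with few counts, and p-values rest on 6 biological replicates a group. Alternatives were DESeq2 1.42.0, its size factors, no filter or at least 10 counts in every library, 1 fit of all 30 libraries, the replicate block, marker scores as terms, TPM with limma 3.58.1 (0.1 or 1 added, and a mean of at least 1 TPM), and each library left out.

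Named genes were the 10 members, the genes of the class II transcription, processing and region lists past the adjusted threshold or among the 4 highest in TPM, and the 5 genes most like each of 3 profiles. Rfx5, Rfxank, Rfxap, the NF-Y genes, Btnl2 and the B cell examples were named in addition, for their roles. The genes and lists were chosen with earlier results of these data known.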

Additional observations from a re-analysis of the deposited data

Results flagged for a closer look

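Of 50 tests for an outlying library (10 genes in 5 groups of 6), 1 passed, and chance alone flags about 1 in 20 groups. Cd74 in CD M replicate 1 lay above the other CD M libraries in log2 CPM, with a gap to the nearest that was 0.701 of the range of the group. It was at 161 TPM, where the other CD M libraries held 66.5 to 81.4 TPM, and the same library held 109 TPM of summed B cell markers.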

How the results depend on the processing

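Of 1605 log2 fold changes of single genes under another setting, 8 newly passed the adjusted threshold, all between CD F and CD M, and 185 changed sign, none of them past that threshold. Between CD F and CD M, the number of genes past the threshold of the study moved. The share of all genes fitted is given in brackets. The number was 6 with DESeq2 (6.3%), 2 without the filter (8.13%) and 3 with all 30 libraries in 1 fit (8.49%). With at least 10 counts in every library it was 0 of 7 tested (8.63%). It was 2 with the smooth muscle score (13.9%) and 3 with the sample numbers as a term (8.81%). In TPM it was 3 on log2(TPM + 0.1) (8.22%), 3 on log2(TPM + 1) (4.88%) and 2 on log2(TPM + 1) with a mean of at least 1 TPM (7.84%). Leaving out 1 library gave 0 to 7 past the threshold of the study (8.1 to 11.2% of all genes) and 0 to 4 past the adjusted one (1.62 to 4.6%). At the threshold of the study the range was 0 to 5 for HFD F against HFD M (2.36 to 5.01%) and 0 to 1 for HFD F against CD F (3.17 to 5.44%). It was 0 to 1 for HFD M against CD M (2.27 to 4.68%) and 0 to 2 for E2 against vehicle (3.67 to 9.86%). For the interaction it was 0 to 2 (7.28% without CD M replicate 1). For E2 the number was 0 with the B cell score (5.53%) and on log2(TPM + 0.1) (7.26%). It was also 0 on log2(TPM + 1) (4.86%) and on log2(TPM + 1) with a mean of at least 1 TPM (8.58%). Leaving out the libraries with over 5 TPM Krt14, chosen after seeing the data, changed no count. The cause of these changes was not tested.

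With the replicate block, 4 genes passed the adjusted threshold between CD F and CD M (H2-Aa 0.62, H2-Eb1 0.49, H2-DMb2 1.53 and H2-Ob 1.93 on the log2 scale), against 6.31% of all genes, and 5 that of the study, against 10.3%. The labels give no shared origin for equal numbers, so the numbers were not taken as pairs. The correlation of equally numbered libraries of these groups ran from -0.13 to 0.50 with 5 of 6 over 0.1. These values do not settle whether equal numbers share an origin, which was not tested. The block changed no other count.

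H2-Oa, with 2 to 108 counts per library, did not pass edgeR's filter in the comparisons of CD F and of HFD M with CD M.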

Other observations

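The 12 genes of MHC class I presentation, such as H2-K1, B2m and Tap1, had a median log2 fold change of 0.31 with E2 and of 0.26 between HFD F and HFD M, and 1 of them passed the threshold of the study in edgeR, with E2, where 5.87% of all genes passed it. DESeq2 gave 3 of them an unadjusted p under 0.05 with E2 and 1 between HFD F and HFD M, and neither tool placed any past the adjusted threshold. Between CD F and CD M their median was 0.05, where that of the class II genes was 0.50. Of the 18 genes of the interferon gamma response, 12 could be tested between HFD F and CD F and 2 of these passed the threshold of the study, against 3.67% of all genes. Of 10 genes of T cell help and costimulation, such as Cd4 and Cd86, 5 could be tested between CD F and CD M and 2 of these passed it, against 9.15% of all genes. T cell markers were low, with summed levels of 0.683 to 9.57 TPM over all libraries, and of the 3 of 10 that could be tested between CD F and CD M, 2 passed the threshold of the study in CD F (1 of the list by adjusted p in DESeq2). The summed level of MHC class I genes was 707 to 1088 TPM.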
